A study of Apostichopus japonicus with 9 samples.

Results

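The most abundant transcripts of the respiratory tree under control conditions were the gene models with a mean of at least 1000 CPM (the expected counts scaled to a common library total) over the 3 control libraries of the sea cucumber Apostichopus japonicus. There were 132 such models among the 13933 that passed the filter on low counts and the 27214 listed in any library. The DO2 animals had been held for 3 days at about 2 mg/L dissolved oxygen, the DO4 animals at about 4 mg/L and the DO8 animals, the control, at about 8 mg/L. Oxygen was lowered with nitrogen in the DO2 and DO4 groups, and each of the 3 libraries per group was made from RNA of 3 pooled individuals. Neither strain nor age of the animals is in the labels, and no tanks are named, so a p-value reflects only how far the pools differ from each other. CPM were taken on library totals rescaled with TMM factors, so a library's values need not add up to its plain CPM total.

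The respiratory tree is a pair of branched, thin-walled tubes opening into the cloaca, through which a sea cucumber pumps sea water to take up oxygen. In animal tissues the most abundant poly(A) transcripts commonly come from genes for ribosomal proteins and other parts of the translation machinery, for actin and other cytoskeletal proteins, and for the special products of the tissue. The tables identify a model by a scaffold and a running number and pair none of them with a gene name, and 0 of the identifiers matched the supplied RefSeq gene table. No role or sequence is therefore given to any model, and the tissue was not checked against marker genes. The members are ordered by abundance, length, position and behaviour across the oxygen levels. In pooled tissue, fewer cells of a type and less RNA per cell cannot be told apart.

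Membership was decided by the DO8 values, filtered and scaled with all 9 libraries. The DO8 values are therefore a description. The models just inside the limit were evm.model.scaffold10.21, evm.model.scaffold741.1 and evm.model.scaffold420.46, with DO8 means of 1025, 1021 and 1001 CPM. Just outside lay evm.model.scaffold710.4, evm.model.scaffold134.17 and mRNA.scaffold59.extract.exonerate.1120, at 999.1, 998.4 and 996.4 CPM. All 132 members passed the filter, as their level requires.

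These 132 models, 0.947% of those tested, held a large part of every library. Their share of the counts was 44.4%, 45.4% and 70.7% in the DO2 libraries 1 to 3, 53.1%, 41.6% and 39.2% in the DO4 libraries, and 45.1%, 40.6% and 42.2% in the DO8 libraries. DO2 library 3 stood far above the rest, DO4 library 1 came next, and the ranges of all 3 groups overlapped. The mean share was 53.5% ± 14.9 in DO2 and 44.6% ± 7.47 in DO4 (SD, n = 3 each), against 42.7% ± 2.28 in DO8 (SD, n = 3). DO2 exceeded DO4 by 8.88 percentage points, with p = 0.5 in a two-sided exact permutation test, where 3 libraries against 3 cannot give less than 0.1. Without DO2 library 3 the difference was 0.293 points, and over all single libraries left out it was 0.293 to 13.4 points. At least 50% of the counts that fell on members came from 3 models in DO2 library 3 and from 21 to 24 models in the other 8 libraries.

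**Figure D1:**
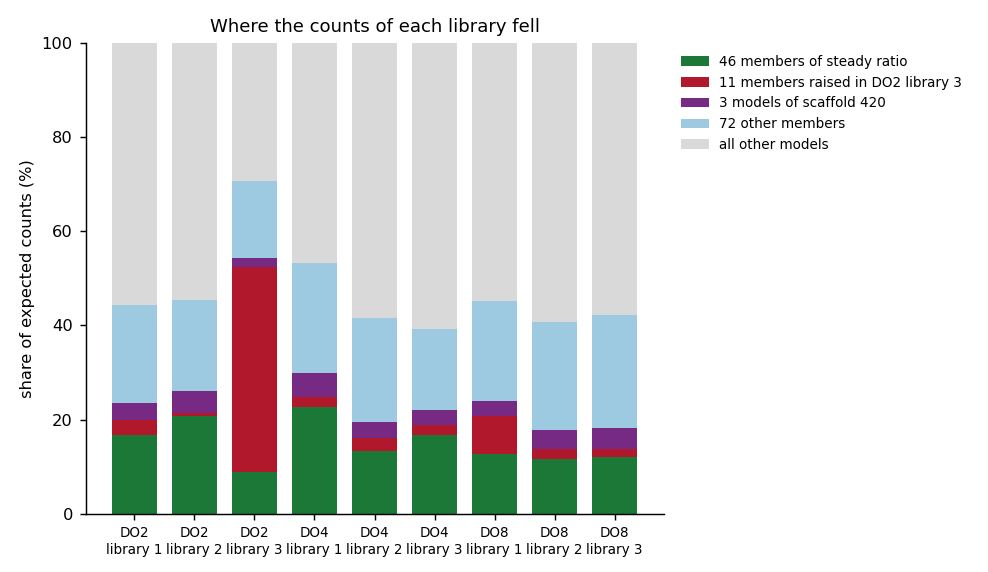
Share of the expected counts of each library (vertical axis, %) that fell on 46 members linked through pairs of steady ratio, 11 members raised in DO2 library 3, 3 models of scaffold 420, the 72 other members, and all other models (stacked bars, 1 per library). The members together take 70.7% of DO2 library 3, and 39.2% to 53.1% of the other libraries.

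Total expected counts ran from 1536327 in DO4 library 1 to 4348873 in DO2 library 3. TMM factors were lowest in DO2 library 3 (0.458) and DO4 library 1 (0.771) and ran from 1.051 to 1.271 elsewhere. A count of 0 allows a level of up to 0.701 to 2.55 CPM, depending on the library (3 counts, counting error only), far below any member's mean.

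The most abundant member by counts was evm.model.scaffold811.7, a model of 11460 bases. It had 37482, 24044 and 118820 CPM in the DO2 libraries, 62706, 31496 and 14887 CPM in the DO4 libraries, and 24395, 32892 and 25916 CPM in the DO8 libraries. Its DO2 and DO4 values spread widely on both sides of the DO8 values. The second, evm.model.scaffold1365.7, with 1128 bases, was among the steadiest members: 23715, 23659 and 17652 CPM in DO2, 26767, 16398 and 19319 CPM in DO4, and 17409, 16595 and 27786 CPM in DO8. Its highest library was 1.69-fold above its lowest. None of its 9 expected counts was a whole number, as happens when reads are divided among models. Model evm.model.scaffold843.20, with 522 bases, was the most abundant per length, at 36020 CPM per kilobase in DO8. It had 12851, 23578 and 47956 CPM in DO2, 33824, 17695 and 5765 CPM in DO4, and 18662, 15974 and 21773 CPM in DO8. The DO8 libraries were close together and both other groups reached above and below them.

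The remaining models among the 10 highest by counts were evm.model.scaffold420.110 and evm.model.scaffold420.109, evm.model.scaffold688.8 and evm.model.scaffold688.10, evm.model.scaffold497.8, evm.model.scaffold127.16 and evm.model.scaffold493.12. Model evm.model.scaffold127.16, only 246 bases long and the shortest member, ranked 9 by counts and 2 per kilobase. Its levels were 872, 1362 and 13236 CPM in DO2, 5082, 1690 and 673 CPM in DO4, and 8680, 3109 and 3419 CPM in DO8. DO2 library 3 lay above the DO8 range and DO4 library 1 within it, while the other 4 low-oxygen libraries lay below. The other 3 shortest members were evm.model.scaffold2474.1 with 258 bases and evm.model.scaffold461.6 and evm.model.scaffold20.3 with 279 bases each.

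Members were mostly short. Their median length was 831 bases, against 1032 bases over all tested models, and 81 of the 132 (61.4%) were under 1000 bases, against 48% of the tested models. Of the members, 128 (97%) had a length divisible by 3, against 93.5% of all models, so most of the lengths look like coding lengths. Since counts grow with length, a limit on CPM favours long models, and ranking by level per kilobase changed the membership: 96 of the 132 were also among the 132 highest per kilobase in DO8. The models that stand out most in this respect are evm.model.scaffold420.108, evm.model.scaffold420.109 and evm.model.scaffold420.110, listed at 956092, 1505442 and 1761004 bases. They ranked 28, 5 and 3 by counts but 11664, 9052 and 7256 per kilobase, at 3.48, 7.2 and 11.4 CPM per kilobase in DO8. Whether these 3 lengths are those of transcripts or of genomic spans is not known, and if they are spans the levels per kilobase have no meaning. The longest member elsewhere was evm.model.scaffold811.7.

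**Figure D2:**
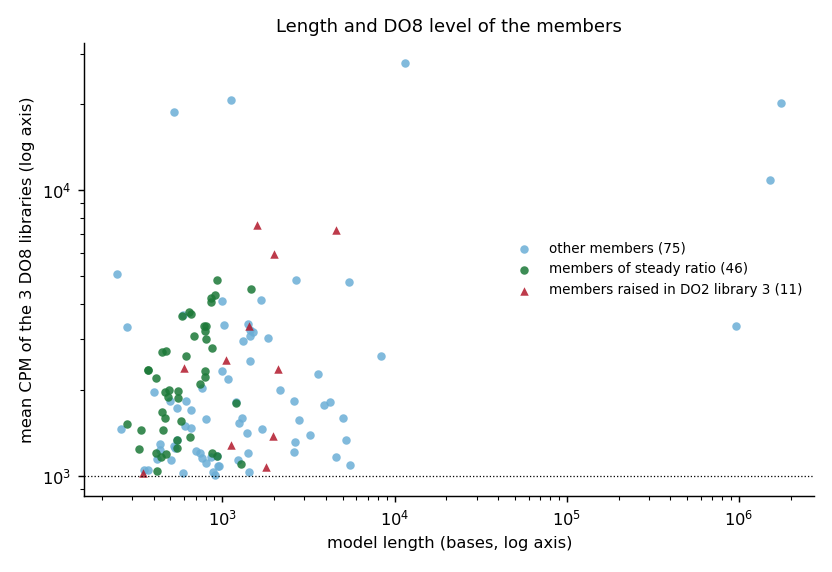
Length of each member in bases (horizontal, log axis) against its mean CPM over the 3 DO8 libraries (vertical, log axis, the dotted line marks 1000 CPM), with 46 members of steady ratio, 11 members raised in DO2 library 3 and 75 other members. The members of steady ratio lie between 279 and 1476 bases, and 3 models of scaffold 420 lie far to the right, up to 1761004 bases.

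Whole-number expected counts (no decimal part) in every library that listed the model were found for 77 members (58.3%), against 43.1% of the tested models. For 44 members (33.3%) no estimate was whole in any library, against 37.9% of the tested models. Estimates become fractional when reads are divided among models, so the individual levels of these 44 may be uncertain. What part of their counts was divided is not known.

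The members lay on 105 scaffolds, and 44 of them shared a scaffold with at least 1 other member. Scaffolds 29 and 420 held 4 members each. In 7 cases members carried consecutive numbers of the same identifier series, which makes 16 members in runs. The models beside a run were far lower in the cases that follow, with an exception on scaffold 274. Models evm.model.scaffold796.3 and evm.model.scaffold796.4 had DO8 means of 2175 and 1590 CPM, while evm.model.scaffold796.2 had 4.91 CPM and evm.model.scaffold796.6 had 50.2 CPM. Likewise evm.model.scaffold493.12 and evm.model.scaffold493.13 had 4844 and 1311 CPM in DO8, beside 2.09 CPM for evm.model.scaffold493.11 and 29.9 CPM for evm.model.scaffold493.15. On scaffold 274 the models before and after the run, evm.model.scaffold274.13 and evm.model.scaffold274.16, stood at 343 and 621 CPM.

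The run with the highest summed level in DO8 was that of evm.model.scaffold420.108 to evm.model.scaffold420.110. Its summed level was 33440, 44970 and 41480 CPM in DO2, 68620, 27770 and 25290 CPM in DO4, and 30030, 33200 and 39430 CPM in DO8. Only DO4 library 1 stood clearly apart from the others. No expected count of these 3 models was whole, and the log2 ratio of the closest pair varied with an SD of 0.14 over the 9 libraries.

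The run that starts with evm.model.scaffold688.8 and ends with evm.model.scaffold688.10 was the most variable. Its summed level was 17890, 2351 and 826800 CPM in DO2, 13870, 11460 and 14730 CPM in DO4, and 39210, 7396 and 4730 CPM in DO8. DO2 library 3 was far above every other library, and DO8 library 1 was the next highest. In DO8 its level rested mostly on library 1: evm.model.scaffold688.9 had 5357 CPM there and 1041 and 667 CPM in DO8 libraries 2 and 3.

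Among the 5 other runs, evm.model.scaffold274.14 and evm.model.scaffold274.15 summed to 1779, 3090 and 12830 CPM in DO2, 2492, 6748 and 1630 CPM in DO4, and 5202, 4443 and 3822 CPM in DO8. Their log2 ratio varied with an SD of 0.33 while each ranged over 2.87 to 3.27 log2 units, so the neighbours were high and low in the same libraries. The neighbours add.evm.model.scaffold383.10 and add.evm.model.scaffold383.11 summed to 2671, 1973 and 5787 CPM in DO2, 8873, 4276 and 1238 CPM in DO4, and 6254, 7368 and 5654 CPM in DO8. Models evm.model.scaffold796.3 and evm.model.scaffold796.4 kept the steadiest ratio of a run of 2, with an SD of 0.29 log2 units. The sums of evm.model.scaffold493.12 and evm.model.scaffold493.13 differed less between libraries, at 4605, 4900 and 3733 CPM in DO2, 6746, 5764 and 3838 CPM in DO4, and 6089, 5239 and 7137 CPM in DO8. The sums of evm.model.scaffold1274.3 and evm.model.scaffold1274.4 were 8817, 9044 and 9904 CPM in DO2, 13850, 5544 and 7160 CPM in DO4, and 7037, 6479 and 4676 CPM in DO8. The ratio of evm.model.scaffold1274.3 to evm.model.scaffold1274.4 varied most (SD 0.55); in DO8 library 3 the first had 4162 CPM and the second 514 CPM, against 5017 and 1462 CPM in DO8 library 2. No expected count of that pair was whole.

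**Figure D3:**
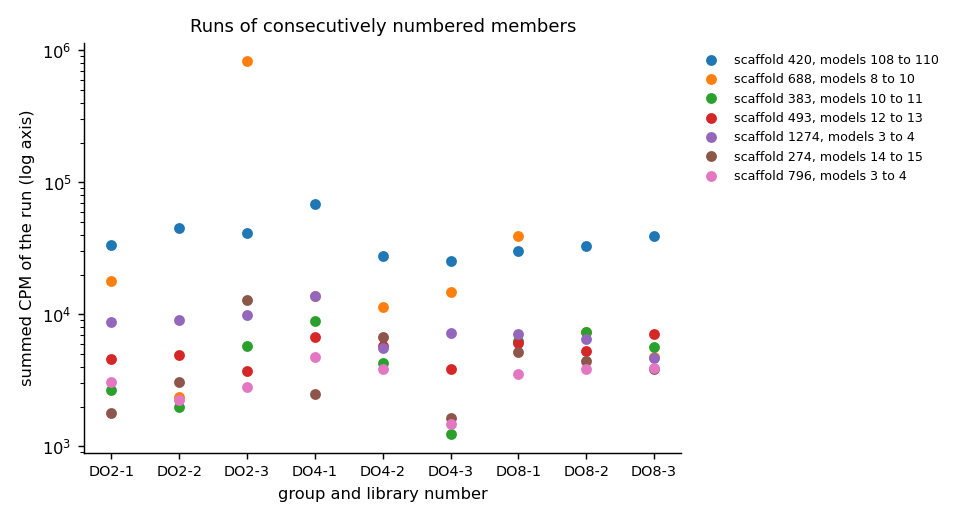
Summed CPM (vertical, log axis) of each of the 7 runs of consecutively numbered members in the 9 libraries (horizontal; 1 point per run and library). The run with evm.model.scaffold688.8 reaches 826800 CPM in DO2 library 3 and lies between 2351 and 39210 CPM elsewhere, while the run of scaffold 420 lies between 25290 and 68620 CPM.

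Within the control group, 100 of the 132 members reached 1000 CPM in every DO8 library and 32 did so in 1 or 2 of them. The highest DO8 library was less than 1.5-fold above the lowest for 79 members and at least 2-fold above it for 30. Model evm.model.scaffold94.37 owed its place to 1 library, with 5652 CPM in DO8 library 2 and 89.5 and 123 CPM in DO8 libraries 1 and 3. It had 125, 414 and 1009 CPM in DO2 and 455, 131 and 56.1 CPM in DO4, all within the span of the DO8 libraries apart from 1 lower value in DO4. The opposite case was evm.model.scaffold686.19, listed in 8 libraries, with 1274 and 1855 CPM in DO8 libraries 1 and 3 and no count in DO8 library 2. It had 1935, 1055 and 2756 CPM in DO2 and 6216, 1577 and 2064 CPM in DO4, so the count of 0 was single among the 9 libraries. None of its estimates was whole, so its separate level may be uncertain, and what part of its counts was divided is not known.

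The steadiest members over all 9 libraries were evm.model.scaffold110.30, evm.model.scaffold295.2, evm.model.scaffold215.11 and evm.model.scaffold626.8, with SDs of log2 CPM from 0.28 to 0.3. The first had 2618, 2875 and 1776 CPM in DO2, 1958, 2131 and 2054 CPM in DO4, and 1818, 1532 and 2144 CPM in DO8. The most variable were evm.model.scaffold688.8, evm.model.scaffold688.9, evm.model.scaffold688.10, evm.model.scaffold661.15 and evm.model.scaffold686.19, with SDs from 2.27 to 3.91. The median SD was 0.61 for members and 0.73 for all tested models, whose lower counts carry more counting error. Within groups the median SD of the members was 0.34 in DO2, 0.8 in DO4 and 0.24 in DO8, against 0.63, 0.72 and 0.46 over all tested models. The members' median SD was the lower one in DO2 and DO8 but not in DO4. Of the 9 libraries, DO4 library 1 was the highest for 61 members (46.2%), beside 14.4% of all tested models. DO4 library 3 was the lowest for 43 members, DO8 library 2 for 40 and DO4 library 2 for 21. For the lowest library the share of all tested models was not counted.

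A set of 11 members was at least 3-fold higher in DO2 library 3 than in any other library of the DO2 and DO4 groups. They were evm.model.scaffold688.8, evm.model.scaffold688.9, evm.model.scaffold688.10, evm.model.scaffold661.15, evm.model.scaffold497.8, evm.model.scaffold497.3, evm.model.scaffold110.21, evm.model.scaffold24.44, evm.model.scaffold814.11, evm.model.scaffold1544.2 and evm.model.scaffold10.21. The first 4 exceeded the next low-oxygen library 39.3-fold to 53.3-fold, and the others 3.01-fold to 7.23-fold. Together the 11 took 3.21%, 0.692% and 43.4% of the counts in DO2, 2.02%, 2.76% and 2.21% in DO4, and 8.06%, 2.23% and 1.59% in DO8. Among the DO8 libraries, 10 of the 11 were highest in library 1, the library with the largest share in that group. This set was chosen for its level in 1 library, no test is given for it, and 9 of its models had no whole estimate.

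A second set was defined by constancy. Of the 8646 pairs of members, 373 (4.31%) had a log2 ratio that varied by an SD of at most 0.2 over the 9 libraries. These pairs took in 55 members, and the largest group they linked held 46 members, called the steady-ratio set here. The set was chosen after the values were seen, its members are linked through partners, and it gets no test. Its models lay on 43 scaffolds, had a median length of 581 bases (range 279 to 1476) against 1167 bases for the other 86 members, and had DO8 means of 1036 to 4835 CPM. In 35 of them every expected count was whole. The steadiest pair, evm.model.scaffold337.43 and evm.model.scaffold337.29, had an SD of 0.058 and lay on the same scaffold 14 numbers apart, while the next, evm.model.scaffold437.5 and evm.model.scaffold336.2 (SD 0.072), lay on different scaffolds.

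Model evm.model.scaffold337.43 shows the course of the set. It had 4783, 5979 and 5902 CPM in DO2, 11130, 3643 and 4232 CPM in DO4, and 3813, 2946 and 3271 CPM in DO8. Model evm.model.scaffold337.29 had 3211, 4045 and 3933 CPM in DO2, 7174, 2259 and 3011 CPM in DO4, and 2453, 2019 and 2144 CPM in DO8. In both, every DO2 library lay above every DO8 library, and the DO4 libraries were split, with library 1 the highest of all.

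Summed over the 46 models, the steady-ratio set stood at 15.2%, 20% and 19.7% of the TMM-rescaled library total in the DO2 libraries. It stood at 29.7%, 10.6% and 13.4% in the DO4 libraries, and at 11.9%, 9.57% and 10.7% in the DO8 libraries. The rescaled total is the library total times its TMM factor, so these values are not shares of the counts. In DO2 library 3 (factor 0.458) the rescaled total is far below the counted one. All DO2 libraries and 2 of the 3 DO4 libraries exceeded every DO8 library, and DO4 library 2 lay within the DO8 range. On this rescaled total the group means were 18.3% ± 2.69 in DO2 and 17.9% ± 10.3 in DO4, against 10.7% ± 1.15 in DO8 (SD, n = 3 each). All 46 models were above every DO8 library in each of the 3 DO2 libraries and in DO4 library 1, 38 were so in DO4 library 3, and 8 in DO4 library 2. Single models had DO2 means 1.42-fold to 2.04-fold above their DO8 means, with a median of 1.69-fold. Because the 46 move together, this is 1 pattern and not 46 separate ones.

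The position of DO2 library 3 in this pattern depends on the scaling. In plain shares of the expected counts the set took 16.7%, 20.7% and 8.94% in DO2, 22.7%, 13.2% and 16.7% in DO4, and 12.6%, 11.6% and 12.1% in DO8, so that DO2 library 3 was then the lowest of all. With evm.model.scaffold688.8, evm.model.scaffold688.9 and evm.model.scaffold688.10 left out of the total, its share was 14.3%, against 13.2%, 11.7% and 12.2% in the DO8 libraries. Set against the counts of all non-members, which uses neither TMM factors nor other members, the set had 30, 38 and 30.5 counts per 100 in DO2, 48.4, 22.6 and 27.4 in DO4, and 23, 19.5 and 21 in DO8. On that scale every DO2 library again lay above every DO8 library.

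Length differed along with this pattern, though not in graded steps. Among the 195 non-members under 600 bases with at least 100 CPM in DO8, the median log2 level relative to the DO8 mean was 0.22, 0.16 and 0.3 in the DO2 libraries and 0.46, -0.09 and -0.13 in the DO4 libraries, against 0.1, -0.1 and 0.04 in the DO8 libraries. Among the 386 such non-members of at least 1000 and under 2000 bases the corresponding medians were -0.26, -0.4 and -0.21 in DO2 and -0.17, -0.35 and -0.6 in DO4, against 0, -0.04 and 0.07 in DO8. Among the 221 such non-members of at least 600 and under 1000 bases they were -0.23, -0.06 and 0.01 in DO2 and 0.09, -0.46 and -0.41 in DO4, against 0.04, -0.08 and 0.07 in DO8. Among the 201 of 2000 bases or more they were -0.17, -0.22 and -0.03 in DO2 and -0.19, -0.17 and -0.52 in DO4, against -0.01, -0.03 and 0.05 in DO8. Non-members under 600 bases stood above each class of longer ones in every DO2 and DO4 library, and the longer classes had no fixed order. For the steady-ratio set the medians were 0.54, 0.9 and 0.85 in DO2 and 1.49, 0.03 and 0.36 in DO4, against 0.16, -0.16 and -0.02 in DO8. The part of length in the pattern was not tested.

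Other models followed the set without reaching the abundance limit. Of the 13801 tested non-members, 61 kept a log2 ratio to the summed set with an SD of at most 0.3, with DO8 means of 2.98 to 998 CPM and a median length of 543 bases. The closest was evm.model.scaffold176.46, with 507 bases and 969 CPM in DO8 (SD 0.1).

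**Figure D4:**
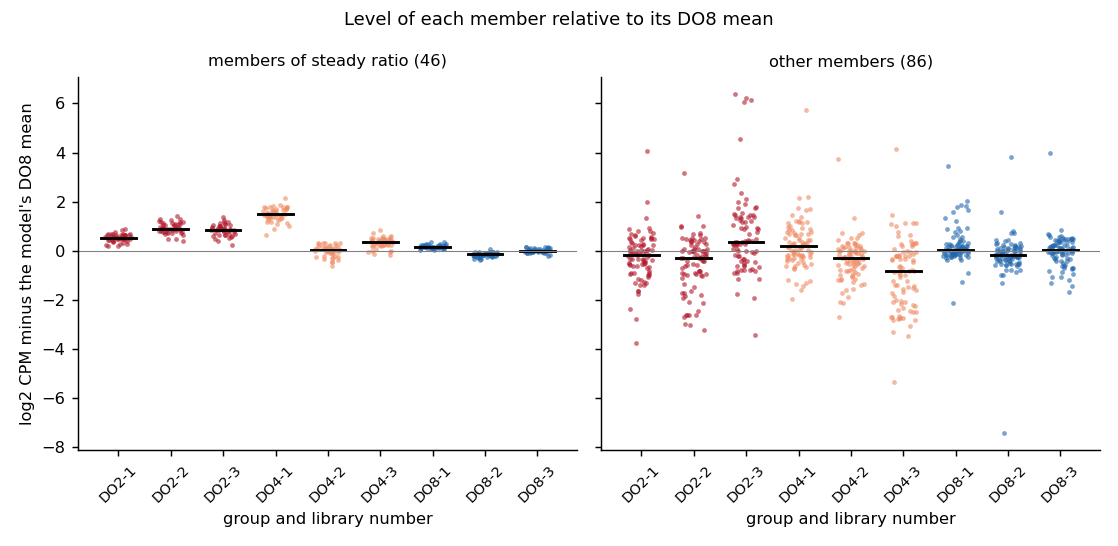
Level of each member in each library, as log2 CPM minus the model's own DO8 mean (vertical axis), for the 46 members of steady ratio (left) and the 86 other members (right). Points are models and black bars are medians. In the left panel all 3 DO2 libraries and DO4 library 1 lie wholly above 0, as does DO8 library 1 (0.03 to 0.35). DO4 library 2 lies around 0 there, while the right panel is spread widely about 0 in every library.

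The comparison of DO2 with DO8 asks how the abundant control transcripts stood after 3 days at the lowest oxygen. The members were chosen on DO8 values, so counts and ratios against DO8 are given without a test. For 54 members every DO2 library lay above every DO8 library, and for 13 every DO2 library lay below, which is 40.9% and 9.85% of the members beside 6.73% and 7.46% of all tested models. All 46 models of the steady-ratio set are among the 54, and with plain CPM the count of higher members was 0 in place of 54. The 13 lower members had a median length of 1419 bases and none belonged to the steady-ratio set. Without DO2 library 3 there were 25 lower members, beside 14% of all tested models, and without DO8 library 2 there were 21, beside 11.4%. The median log2 difference was 0.45 over the members and -0.01 over all tested models, and 0.16 over the members without DO2 library 3. Across the whole table edgeR's quasi-likelihood test called 0% of the models after Benjamini-Hochberg adjustment and 5.96% at an unadjusted p under 0.05 (2.73% upward and 3.24% downward), while DESeq2 called 64 models.

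Among members whose DO2 and DO8 libraries did not overlap, the lowest DO2 means relative to DO8 were on scaffold 29. Model evm.model.scaffold29.34 had 147, 185 and 265 CPM in DO2 and 416, 1689 and 1503 CPM in DO8, a mean 6.04-fold lower in DO2. The DO4 libraries, at 939, 1020 and 238 CPM, were spread over both ranges. On the same scaffold evm.model.scaffold29.36 had 1360, 801 and 846 CPM in DO2 and 2216, 3289 and 3342 CPM in DO8, 2.94-fold lower in DO2, and again a split DO4 group with 2507, 3126 and 635 CPM. Next came evm.model.scaffold663.1, with 1998.9, 1562 and 282 CPM in DO2 and 3566, 3968 and 2000.9 CPM in DO8, where the nearest values of the groups differ by 2 CPM. Model add.evm.model.scaffold383.11 had 1466, 1079 and 2248 CPM in DO2 and 3095, 3647 and 3414 CPM in DO8, 2.12-fold lower.

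Among members whose DO2 and DO8 libraries did not overlap, the highest ratio of DO2 to DO8 was that of evm.model.scaffold1221.2, a model of 8367 bases outside the steady-ratio set. It had 10262, 2921 and 6793 CPM in DO2 and 2623, 2916 and 2304 CPM in DO8, 2.55-fold higher in DO2, with DO2 library 2 hardly above DO8 library 2. Model evm.model.scaffold741.1 was more even, at 2539, 2674 and 2257 CPM in DO2, 3200, 1360 and 2229 CPM in DO4, and 1149, 893 and 1020 CPM in DO8. Both low-oxygen groups of evm.model.scaffold741.1 lay wholly above DO8, with means 2.44-fold higher in DO2 and 2.22-fold higher in DO4. Model evm.model.scaffold318.9 followed the same order, with DO2 libraries from 2910 to 3788 CPM, DO4 libraries from 1933 to 4255 CPM and DO8 libraries from 1406 to 1784 CPM. The fourth by ratio among these members, evm.model.scaffold157.7 of the steady-ratio set, had 3850, 6983 and 5236 CPM in DO2 and 2845, 2255 and 2774 CPM in DO8, 2.04-fold higher in DO2.

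Setting DO4 beside DO8 puts that question for about 4 mg/L, and it shares the DO8 libraries with the comparison above. Every DO4 library lay above every DO8 library for 12 members and below for 9, which is 9.09% and 6.82% of the members beside 6.98% and 8.8% of all tested models. Of the 12 higher members 8 belong to the steady-ratio set, and of the 9 lower members 0. The count of higher members was 48 without DO4 library 2, 33 without DO8 library 1 and 19 without DO4 library 3, beside 12.7%, 10.8% and 11.9% of all tested models. That of lower members was 33 without DO4 library 1, 21 without DO8 library 2 and 14 without DO4 library 2, beside 16.6%, 12.8% and 14.7% of all tested models. The median log2 difference was 0.18 over the members and -0.03 over all tested models, and it was -0.17 over the members without DO4 library 1. EdgeR called 0% of all models after adjustment and 8.53% at an unadjusted p under 0.05 (3.81% upward and 4.72% downward), and DESeq2 called 125 models.

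Among members whose DO4 and DO8 libraries did not overlap, evm.model.scaffold235.50 had the lowest DO4 mean relative to DO8. It had 493, 732 and 151 CPM in DO4 and 1234, 1134 and 2415 CPM in DO8, 3.48-fold lower in DO4, and its DO2 libraries were split, at 109, 159 and 1591 CPM. Model evm.model.scaffold154.9 had 440, 663 and 252 CPM in DO4 and 1199, 988 and 1401 CPM in DO8, 2.65-fold lower in DO4. The DO2 libraries of evm.model.scaffold154.9, at 891, 275 and 685 CPM, also lay below every DO8 library. Models evm.model.scaffold637.13 and add.evm.model.scaffold663.1 were 2.1-fold and 2.07-fold lower in DO4. Among the higher members, evm.model.scaffold81.65 had 4612, 1222 and 1493 CPM in DO4 and 1117, 967 and 1023 CPM in DO8, a ratio of 2.36 that was 1.31 without DO4 library 1. Model evm.model.scaffold157.7 likewise had a ratio of DO4 to DO8 of 2.06, and 1.3 without that library. The ratio was 2.11 for evm.model.scaffold1010.15, at 3589, 2297 and 3019 CPM in DO4 and 1646, 1043 and 1531 CPM in DO8, all DO4 libraries being above all DO8 libraries.

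Both low-oxygen groups lay above DO8 in all libraries for 11 members and below it for 3, and for 0 members did they lie on opposite sides. This is 8.33%, 2.27% and 0% of the members, beside 2.04%, 2.91% and 0.129% of all tested models. Of the 11 higher members 8 belong to the steady-ratio set, whose models move together, so the 11 are not separate cases. The 3 lower ones were evm.model.scaffold154.9, evm.model.scaffold152.16 and evm.model.scaffold420.46. Both comparisons use the same DO8 libraries, so they are not independent, and a shared response was not tested.

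The comparison of DO2 with DO4 uses libraries whose levels were not held against the limit of 1000 CPM. It is the one in which the members were tested. The choice was not wholly free of these libraries, because the filter and the TMM factors used all 9 libraries. Without DO2 library 3 and DO4 library 1 there were 154 members in place of 132. The edgeR fit also takes its spread from all 9 libraries. EdgeR called 0 of the 132 members and 0% of all models after adjustment over the 13933 models. At an unadjusted p under 0.05 there were 6 members (4.55%) beside 4.91% of all models. Of these, 5 were higher and 1 was lower, beside 2.94% and 1.97% of all models, and DESeq2 called 27 models, 0 of them members. The median log2 difference was 0.2 over the members and 0.01 over all tested models, and 99 of the 132 members (75%) had a higher mean log2 CPM in DO2, beside 51% of all tested models. The 46 models of the steady-ratio set move together, so the 132 members are not separate cases in this count. The median over the members was 0.29, 0.17 and 0.07 without DO2 library 1, 2 and 3. It was 0.66, -0.06 and 0.01 without DO4 library 1, 2 and 3. With plain CPM it was -0.21, and that over all models -0.35. EdgeR's estimate of the biological coefficient of variation was 61.1%.

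The smallest p among the members belonged to evm.model.scaffold482.19, a model of 888 bases. It had 983, 970 and 1436 CPM in DO2 and 618, 462 and 429 CPM in DO4, with DO8 libraries at 1128, 886 and 1082 CPM. The DO2 and DO4 libraries did not overlap, and the DO2 and DO8 libraries did. The log2 fold change was 1.17 ± 0.33 (SE), with an edgeR adjusted p of 0.971 and an unadjusted p of 0.00516. Models evm.model.scaffold637.13 and evm.model.scaffold139.10 were also higher in every DO2 library than in any DO4 library. The first had 1312, 1370 and 1076 CPM in DO2 and 370, 845 and 870 CPM in DO4 (log2 fold change 0.85 ± 0.39, edgeR adjusted p = 0.971). The second had 1098, 1585 and 1301 CPM in DO2 and 1025, 595 and 1038 CPM in DO4 (log2 fold change 0.58 ± 0.34, edgeR adjusted p = 0.971). The DO8 libraries of both lay within or above the DO2 range, but for 1 library of evm.model.scaffold139.10 at 1096 CPM, just below it.

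One member, evm.model.scaffold2890.2, was lower in every DO2 library than in any DO4 library. It had 2012, 3283 and 3728 CPM in DO2 and 5864, 4267 and 4662 CPM in DO4, with 5220, 2065 and 4989 CPM in DO8. The log2 fold change was -0.71 ± 0.43 (edgeR adjusted p = 0.971), and none of its estimates was whole. These 3 higher and 1 lower members are 2.27% and 0.758% of the 132, beside 4.26% and 3.48% of all models. Without DO4 library 1 the count of higher members was 64, of which 42 belonged to the steady-ratio set, beside 11.2% of all models. It was 7, 10 and 6 without DO2 library 1, 2 and 3, and 5 and 6 without DO4 library 2 and 3, beside 8.68% to 9.23% of all models. The count of lower members ran from 2 to 8 without single libraries of DO2 or DO4 other than DO2 library 1, without which it stayed at 1, beside 6.88% to 10.9% of all models over these 6 settings.

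The other members with an unadjusted p under 0.05 were evm.model.scaffold688.8, evm.model.scaffold688.9, evm.model.scaffold688.10, evm.model.scaffold661.15 and evm.model.scaffold29.34. The first 4 had log2 fold changes of 4.13 to 4.73 that rested on DO2 library 3, and without it the values were -0.32 to -0.41. Model evm.model.scaffold29.34 had a log2 fold change of -1.88 ± 0.65 in DO2 against DO4, with an edgeR adjusted p of 0.971.

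**Figure D5:**
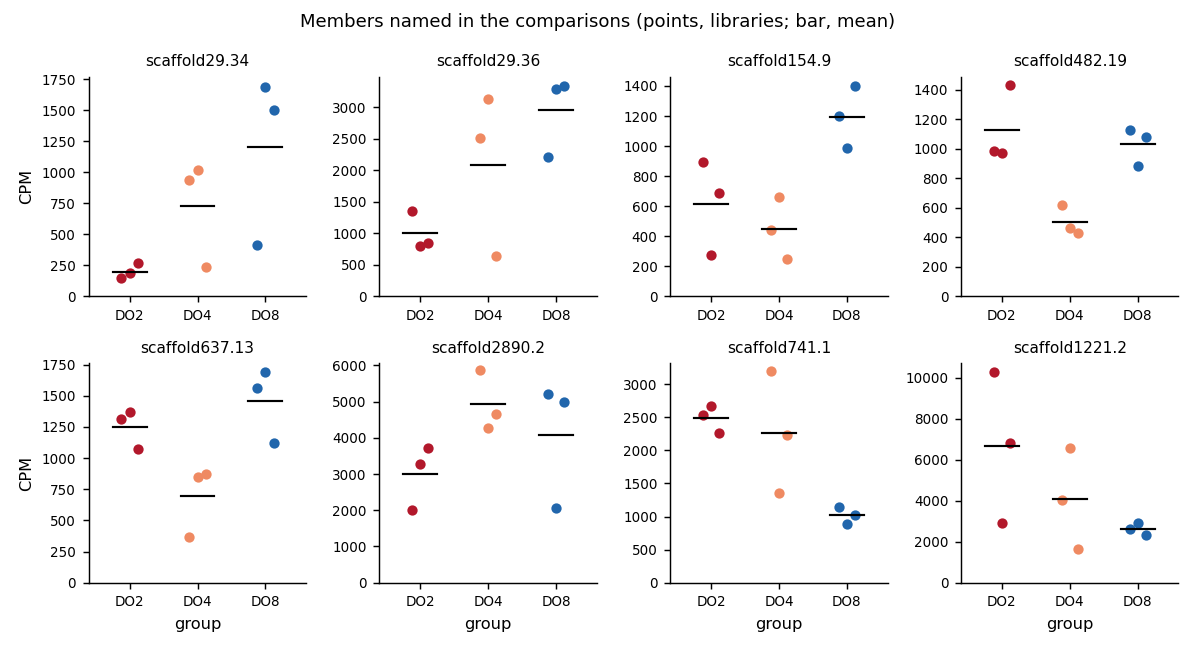
CPM of 8 members named in the comparisons (vertical axes, from 0) in the DO2, DO4 and DO8 libraries. Points are libraries and bars are means of 3. Model evm.model.scaffold482.19 is lowest in DO4, evm.model.scaffold29.34 is lowest in DO2 and evm.model.scaffold741.1 is lowest in DO8.

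Of the 132 members, 120 had a mean of at least 1000 CPM in DO2 and 105 in DO4. The limit was also reached by 47 non-members in DO2 and by 45 in DO4. In single libraries 99 to 117 members reached 1000 CPM in DO2, 86 to 114 in DO4 and 109 to 124 in DO8.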

How the data were processed

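Poly(A) RNA of 9 libraries was sequenced on the BGISEQ-500, per the labels' protocols. The deposited tables give, per the file headers, a length, an expected count (the authors' estimated reads per model, not normalized) and an FPKM value computed by the authors. The submitters' processing notes name CASAVA 1.5. Aligner, counter, genome build and annotation: not given in the sources used here. Unlisted models were set to 0 and expected counts rounded. The default filterByExpr filter by group, TMM factors and glmQLFit (robust) with glmQLFTest of edgeR 4.0.16 (R 4.3.3) were used on all 9 libraries, with 1 coefficient per group and Benjamini-Hochberg adjustment at 0.05. The standard error of a fold change was its log2 value divided by the root of F. SDs and medians of log2 CPM use a prior count of 2. Group means of CPM are over 3 libraries. No 2 libraries agreed within counting noise (chi-square per model of at least 26.3).

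The named models were the 10 highest in DO8, the runs (the 6 highest in full), up to 4 extremes of each ratio among members whose groups did not overlap, the steadiest and most variable, the shortest and longest, and those at the limit. The members, the steady-ratio set, the set of 11, and further named models were chosen with results of these data known. Alternatives were other scalings (DESeq2 1.42.0 size factors, upper-quartile, plain CPM), no filter, DESeq2, limma 3.58.1 on log2(FPKM + 1) and log2(FPKM + 0.1), other limits, a replicate block, 2-group fits and libraries left out.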

Additional observations from a re-analysis of the deposited data

How the results depend on the processing

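The number of members was 258 at a limit of 500 CPM and 56 at 2000 CPM, and 127 to 154 under the other settings apart from the 100 that reached the limit in every DO8 library; 96 were also among as many models with the highest FPKM. The value of 154 arose with plain CPM and, among settings chosen after seeing the data, without DO2 library 3 and DO4 library 1. DESeq2 called 27 models for DO2 against DO4, 64 for DO2 against DO8 and 125 for DO4 against DO8, where edgeR called 0. For DO4 against DO8 edgeR called 2 without the filter and 2 with only these groups fitted. In the same order, limma gave 1, 1 and 3 calls on log2(FPKM + 1), and 1 and 3 in the comparisons with DO8 on log2(FPKM + 0.1) and without its filter. Leaving out single libraries gave 0 to 1, 0 and 0 to 2 calls, and 0 members were called for DO2 against DO4 under any of the 19 alternatives. What caused the differences was not tested.

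No pairing of same-numbered libraries was visible in the values (correlations of their deviations -0.169 to 0.068). Whether equal numbers share anything in the design is not in the labels. With the replicate block edgeR called 0 models in each comparison. No member printed with a test passed the threshold in any alternative (adjusted p 0.128 to 1), except that DESeq2 gave no adjusted p for evm.model.scaffold688.8, evm.model.scaffold688.9, evm.model.scaffold688.10 and evm.model.scaffold661.15. Without DO2 library 3 the log2 fold change of DO2 against DO4 was -0.399 for evm.model.scaffold688.8, -0.41 for evm.model.scaffold688.10, -0.32 for evm.model.scaffold688.9 and -0.32 for evm.model.scaffold661.15. The highest values without a single library were 4.745, 5.249, 5.358 and 5.143 in that order. Without DO2 library 3 and DO4 library 1 it was -0.34, -0.37, -0.55 and -0.24 in that order.

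The median log2 difference of the members from DO8 was -0.0526 in DO2 with plain CPM, where all models had -0.45 (and -0.11 in DO4). Leaving out single libraries gave medians of -0.0608 to 0.66 for DO2 against DO4, 0.16 to 0.59 for DO2 against DO8 and -0.17 to 0.34 for DO4 against DO8. Members whose groups did not overlap numbered 0 higher and 22 lower for DO2 against DO8 and 32 higher and 18 lower for DO4 against DO8 with plain CPM (1.03%, 14.8%, 4.98% and 9.31% of all models), 4 lower for DO2 against DO4 with plain CPM (5.89%), and 24 higher for DO4 against DO8 with upper-quartile factors (8.63%). Without DO2 library 3 and DO4 library 1 there were 63 higher and 5 lower for DO2 against DO4, 25 lower for DO2 against DO8 and 29 lower for DO4 against DO8 (15.9%, 19%, 14.1% and 15.6% of all models). Leaving out single libraries gave 3 to 64 higher and 1 to 8 lower for DO2 against DO4, 54 to 61 and 12 to 25 for DO2 against DO8, and 10 to 48 and 9 to 33 for DO4 against DO8; fewer libraries overlap less by construction. With an SD limit of 0.3 in place of 0.2 the steady-ratio set held 58 models, with a median length of 646.5 bases and lengths up to 1761004 bases. For 53 of these 58 every DO2 library lay above every DO8 library, beside 6.73% of all tested models, and for 5 the groups overlapped.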
